A study of Mus musculus with 2 samples.

Results

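Malat1, Neat1, Kcnq1ot1 and Meg3 are long noncoding RNAs (lncRNAs) that stay in the nucleus, and their levels were examined in granulocyte-monocyte progenitors (GMPs) of mice with and without a mammary tumor. These 4 of the 24421 gene symbols in the data were chosen by measured values, since the group was put together after a lower Malat1 value in GMPs of tumor-bearing mice had been seen. Their ratios between the libraries are therefore a description and not a test. Expression was measured by bulk RNA-seq. GMPs are bone marrow (BM) cells that give rise to granulocytes and monocytes. One library (NTB-GMP) was made from GMPs of female non-tumor-bearing (NTB) mice, and the other (4T1-GMP) from GMPs of female mice given orthotopic implants of 4T1 cells, a murine mammary tumor line. Both groups shared an F1 semi-syngeneic H-2b/d background in the labels, while the methods of the study describe BALB/c and C57BL/6 mice, and the number of mice behind each library is not given in the sources used here. The cells were sorted by flow cytometry straight from BM, and total RNA was extracted with TRIzol. With 1 library per group, the tumor cannot be told apart from differences between mice, sorts or preparations.

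The 4 RNAs are known for different roles in the nucleus. Malat1 collects in nuclear speckles, where splicing factors are stored, and Neat1 is the scaffold of paraspeckles, bodies that hold RNA-binding proteins and some RNAs. Kcnq1ot1 is transcribed from the paternal copy of the imprinted Kcnq1 domain and silences genes around it through Polycomb and G9a histone methylation. Meg3 is transcribed from the maternal copy of the imprinted Dlk1-Dio3 domain. In blood-forming tissue, nuclear lncRNAs are among the RNAs that differ between stem cells, progenitors and mature cells.

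The values were RPKM, reads divided by gene length in kilobases and by library size. The whole reads behind the RPKM were recovered for 14833 of the 14833 symbols above 0 in either library, and 9588 symbols were listed at 0 in both. The library sizes by which the values had been divided were 10180365 for NTB-GMP and 30016263 for 4T1-GMP, so 4T1-GMP was 2.95 times as deep. The ribosomal RNA precursor Rn45s took 17.0% of the NTB-GMP library size and 6.98% of that of 4T1-GMP. Dropping its reads from both sizes as recovered would move every log2 ratio of 4T1-GMP over NTB-GMP by -0.16. The sizes were not whole numbers, as after a scaling factor that was not recovered. Whether such a factor already offset part of the Rn45s difference cannot be told. The shares and all values with Rn45s left out therefore hold only for the sizes as recovered. The scale for ratios was log2(RPKM + 0.1), which understates differences of low genes. The 10378 genes whose mean RPKM reached 1 are called measured genes from here on. Intervals are 95% intervals on reads, exact Poisson for a level and Clopper-Pearson for a ratio without the added 0.1. They cover counting error of reads only, and no difference between mice, sorts or preparations. Reads amplified by PCR without molecular identifiers are not independent molecules, so the intervals can be too narrow even for that error.

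Malat1 and Neat1 are neighbors on chromosome 19, and their mature RNAs share an unusual 3′ end. Malat1 lies on the minus strand at chr19:5795690-5802672 and Neat1 on the same strand at chr19:5824708-5845480 (RefSeq, GRCm38.p6). In both RNAs a pair of U-rich motifs folds with an A-rich tract into a triple helix, which protects an end that carries no poly(A) tail, and RNase P cuts just after it to release a small tRNA-like RNA. These sequences are shown because they set the 2 RNAs apart from polyadenylated transcripts. They were taken from the GENCODE M21 transcripts (GRCm38, which UCSC calls mm10), are written 5′ to 3′ with T for U, and carry the U-rich motifs TTTCTTTT and TTTTGCTTTT and the A-rich motif AAAAAGCAAAA in capitals. The 84 bases of Malat1 are at chr19:5795982-5796065, and the 58 bases that follow them, which hold the tRNA-like RNA, are at chr19:5795924-5795981. The 90 bases of Neat1 are the last of its long transcript, at chr19:5824708-5824797.
Malat1 3′ end: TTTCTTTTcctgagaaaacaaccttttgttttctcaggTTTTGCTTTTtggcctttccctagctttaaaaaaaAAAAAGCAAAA
Malat1 next 58 bases: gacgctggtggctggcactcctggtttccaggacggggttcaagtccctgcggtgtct
Neat1 3′ end: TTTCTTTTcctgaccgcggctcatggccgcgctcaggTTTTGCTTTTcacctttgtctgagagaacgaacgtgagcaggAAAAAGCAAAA
The 3 motifs, searched on the transcript strand in this order within the last 400 bases and with gaps of at most 60 bases, were present in 2 of 122312 transcripts, those of Malat1 and Neat1. The letters were picked from these sequences, so the match to them is by construction. The A-rich motif alone was present in the last 400 bases of 143 transcripts (0.117%). Whether the libraries were made from RNA with a poly(A) tail or after removal of ribosomal RNA is not reported here. The part of that step in the values of RNAs without a tail was not tested.

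Malat1 was the most abundant of the 4 RNAs in both libraries. Its level was 985 RPKM in NTB-GMP (69990 reads, interval 977 to 992) and 575 RPKM in 4T1-GMP (120606 reads, interval 572 to 579). The 4T1-GMP value was thus 41.6% lower, with a log2 ratio of -0.77 (interval -0.79 to -0.76). Its share of the library size was 0.688% in NTB-GMP and 0.402% in 4T1-GMP. Ranked by RPKM among all symbols, it was the 57th in NTB-GMP and the 118th in 4T1-GMP. A lower ratio than that of Malat1 was found in 7.61% of measured genes. In bulk RNA, fewer cells that contain Malat1 and less Malat1 per cell cannot be told apart, and the same holds for every gene described here.

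Neat1 was far less abundant than its neighbor and was also lower in 4T1-GMP. Its level was 21.2 RPKM in NTB-GMP (4485 reads, interval 20.6 to 21.8) and 13.02 RPKM in 4T1-GMP (8120 reads, interval 12.7 to 13.3). The difference came to 38.4%, or a log2 ratio of -0.70 (interval -0.76 to -0.65), and 9.05% of measured genes had a lower ratio. Neat1 has a long form, which builds paraspeckles, and a short polyadenylated form. The gene length behind the RPKM, 20771 bases, covers the long form, within which the 3004 bases of the short form also lie. The values therefore sum both forms and cannot say which of them was lower.

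Kcnq1ot1 had the lowest ratio of the group. Its level was 13.8 RPKM in NTB-GMP (11734 reads, interval 13.6 to 14.1) and 6.57 RPKM in 4T1-GMP (16463 reads, interval 6.47 to 6.67). The 4T1-GMP value was 52.0% lower, with a log2 ratio of -1.06 (interval -1.11 to -1.04), and 4.38% of measured genes had a lower ratio. Kcnq1ot1 is one unspliced transcript on the minus strand at chr7:143213111-143296547, inside the gene Kcnq1 (chr7:143106877-143427050), which encodes a potassium channel subunit and runs the other way. Its gene length of 83437 bases was the longest recovered for any measured gene, so 11734 reads gave it only a moderate RPKM. Whether reads were counted by strand is not given in the sources used here, and without strand, reads of Kcnq1ot1 and of unspliced Kcnq1 RNA cannot be told apart. Kcnq1 itself was listed at 0 in both libraries.

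Meg3 was not detected above the floor of 3 reads in either library. A single read in NTB-GMP gave 0.00758 RPKM, and 4T1-GMP had 0 reads. At these depths 3 reads would equal 0.0227 RPKM in NTB-GMP but 0.00771 RPKM in 4T1-GMP, so no ratio was taken. Meg3 lies on the plus strand at chr12:109540996-109571729, where it overlaps Rtl1 and the microRNAs Mir770 and Mir1906-1. All 60 microRNA symbols within 250 kb of Meg3 were listed at 0 in both libraries. Mir6987 and Mir6988, near Malat1 and Neat1, were also at 0, as were 9588 of all 24421 symbols. The share among all microRNA symbols was not counted, so nothing about the domain is read from these zeros.

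**Figure D1:**
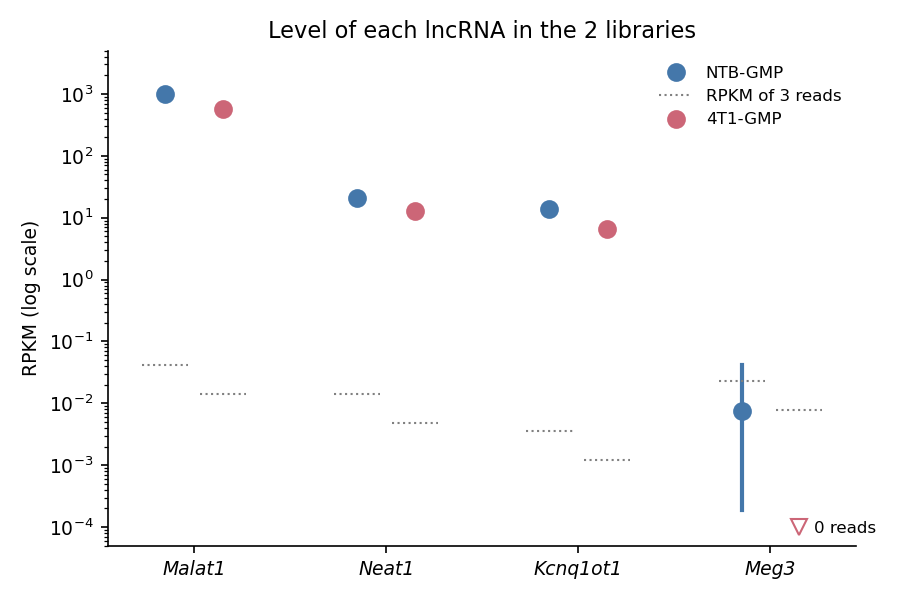
RPKM (log axis) of each lncRNA in NTB-GMP (blue) and 4T1-GMP (red). Points are the single library of each group, vertical lines the 95% Poisson intervals on reads (smaller than the point except for Meg3), dotted lines the RPKM that 3 reads would give, and the open triangle a library with 0 reads, placed at the foot of the axis. Malat1, at 985 and 575 RPKM, lies above Neat1 and Kcnq1ot1, each is lower in 4T1-GMP, and Meg3 stays under its dotted lines.

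The order of the 4 levels was the same in both libraries, and neighbors in that order had counting intervals that did not overlap, apart from Meg3, which was under its floor. Malat1 was 46.4 times as high as Neat1 in NTB-GMP and 44.2 times as high in 4T1-GMP, per length. Against Kcnq1ot1, Malat1 was 71.3 times as high in NTB-GMP and 87.5 times as high in 4T1-GMP. Neat1 was 1.54 times as high as Kcnq1ot1 in NTB-GMP and 1.98 times as high in 4T1-GMP. No replicate error stands behind these proportions.

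Of the 4 RNAs, 3 passed the filter on low values, and of these, 1 (Kcnq1ot1) was at least 2-fold lower in 4T1-GMP and 0 were at least 2-fold higher. Among all 10378 measured genes, 511 (4.92%) were at least 2-fold lower and 337 (3.25%) at least 2-fold higher. Since the contrast itself chose the group, its count is given with nothing read from it. Kcnq1ot1 stood close to the 2-fold line, which it did not reach with a pseudocount of 1 (log2 ratio -0.97). Malat1 and Neat1, at -0.77 and -0.70, were short of it under each scaling and pseudocount that was tried.

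Other lncRNAs also tended to be lower in 4T1-GMP. The median log2 ratio of the 205 measured genes that RefSeq annotates as lncRNAs was -0.36, against 0.05 for all measured genes and 0.06 for the 10006 protein-coding ones, and it was -0.35 for the 202 lncRNA genes other than Malat1, Neat1 and Kcnq1ot1. Among the 205, 152 (74.1%) were lower in 4T1-GMP, against 45.3% of all measured genes. At least 2-fold lower were 34 (16.6%), and at least 2-fold higher were 3 (1.46%). Malat1 had the highest mean RPKM of these lncRNAs, yet 55 of them had a lower ratio, as did 62 for Neat1 and 30 for Kcnq1ot1. Among the 20 lncRNAs with the highest mean RPKM, 10 were lower and the median log2 ratio was -0.00. Of these 20, 2 were at least 2-fold lower, against 4.92% of all measured genes, and 0 at least 2-fold higher. Several of the 20, such as Gas5 and Snhg1, are host RNAs of small nucleolar RNAs, which are described below. Leaving Rn45s out of the library sizes raised the share of all measured genes that were lower to 60.9% and moved their median to -0.11.

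**Figure D2:**
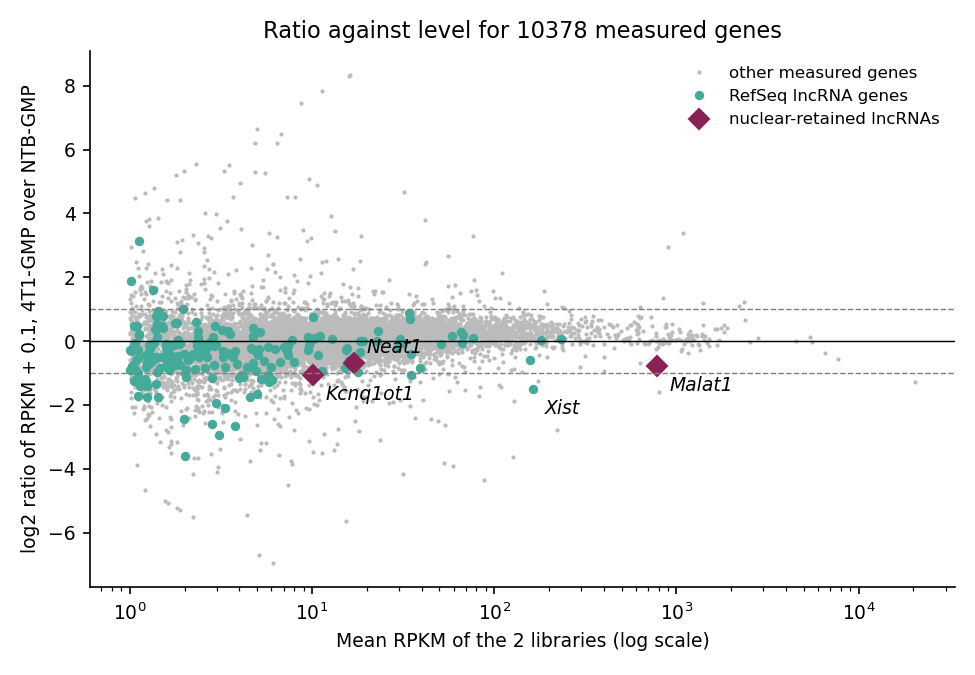
Log2 ratio of 4T1-GMP over NTB-GMP on the log2(RPKM + 0.1) scale against mean RPKM (log axis) for the 10378 measured genes, with lncRNA genes in green, Malat1, Neat1 and Kcnq1ot1 as purple diamonds and the rest in grey. Dashed lines mark 2-fold differences. The median of the green points is -0.36, and Malat1 lies far to the right of the other lncRNAs.

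Length moved with the ratio as well. The lengths were recovered from the RPKM and are lower bounds for genes other than the 4 lncRNAs, so some long genes can be missing here. For 139 measured genes the recovered length was at least 10000 bases, 136 of them protein-coding and 2 of them Neat1 and Kcnq1ot1. Among the 139, 112 (80.6%) were lower in 4T1-GMP and the median log2 ratio was -0.33. Malat1, at 6982 bases, is below that length. The part that length plays in the Neat1 and Kcnq1ot1 values was not tested.

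Among the other lncRNAs known to act in the nucleus or on chromatin, 8 of the 27 found by symbol were measured. Of the 8, 6 were lower in 4T1-GMP, with a median log2 ratio of -0.58. The median was -0.30 with no filter on low values (10 of 17 lower), -0.30 at a mean RPKM of at least 5 (2 of 4 lower) and -0.29 after quantile normalization (7 of 9 lower). Xist, which coats the inactive X chromosome of female cells, was at 241 RPKM in NTB-GMP against 85.1 RPKM in 4T1-GMP, a log2 ratio of -1.50, and was the single one at least 2-fold lower. Jpx and Ftx, noncoding neighbors of Xist that promote its expression, had log2 ratios of -0.89 (2.17 and 1.12 RPKM) and -0.48 (3.80 and 2.70 RPKM). Firre, an X-linked lncRNA that organizes chromatin contacts, went from 9.70 RPKM in NTB-GMP to 6.16 RPKM in 4T1-GMP, a log2 ratio of -0.65. The imprinted Peg13 had a log2 ratio of -0.80 and Dleu2, the host of a microRNA cluster, one of -0.51. Tug1, at 29.6 and 31.0 RPKM (log2 ratio 0.07), and Mir17hg, the host of the miR-17-92 cluster (0.05), lay close to 0 on the other side. Both turned negative with library sizes taken from protein-coding genes or without Rn45s. Under the filter on low values lay Pvt1 (0.703 and 1.27 RPKM, 0.77) and Nespas (1.49 and 0.163 RPKM, -2.59). Morrbid, listed under the older symbol Gm14005 (-0.32), was not counted.

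Host RNAs of small nucleolar RNAs are spliced lncRNAs that are exported and decay in the cytoplasm, and they served as a comparison of noncoding RNAs that leave the nucleus. The list held 12 symbols, and the 10 found by symbol were all measured. Of these, 4 were lower in 4T1-GMP, none was 2-fold different, and the median log2 ratio was 0.03. That median became -0.13 with Rn45s left out, -0.07 with protein-coding library sizes, -0.02 with the median of all genes set to 0 and -0.06 after quantile normalization. Listed hosts under older symbols were not counted, namely Epb4.1l4aos (log2 ratio -0.59) and Zfas1 as 1500012F01Rik (-0.09). Snhg20 (-0.64), Snhg17 (-0.25) and Snhg10 (0.41) were measured but not on the list. Gas5, an abundant host RNA, was at 189 RPKM in NTB-GMP against 125 RPKM in 4T1-GMP (log2 ratio -0.59), whereas Snhg3 was at 26.3 and 42.4 RPKM (0.69). Snhg6 had a log2 ratio of -0.22, Snhg12 of -0.06 and Snhg7 of -0.01, and Snhg4 (0.01), Snhg1 (0.10), Snhg8 (0.17) and Snhg5 (0.21) were on the higher side. Rc3h2, the one protein-coding host among them, was at 9.24 and 9.57 RPKM (0.05).

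Genes for the proteins that gather on Neat1 and Malat1 were more often lower than higher in 4T1-GMP. Of all measured genes, 45.3% were lower in 4T1-GMP, 4.92% by at least 2-fold, and 49.3% were lower after quantile normalization. Of 28 measured genes for paraspeckle proteins, 20 (71.4%) were lower and none by 2-fold, with a median log2 ratio of -0.14. That median became -0.28 after quantile normalization (23 of 28 lower) and -0.10 at a mean RPKM of at least 5. Sfpq, Nono and Pspc1, the core proteins that bind Neat1, had log2 ratios of -0.49 (152 and 108 RPKM), -0.02 and -0.31. Ss18l1 (-0.97) had the lowest ratio of the list, and the cold-inducible Rbm3 (0.59) and Fam98a (0.39) the highest. Of 26 nuclear speckle and SR splicing proteins, 15 (57.7%) were lower and none by 2-fold, with a median of -0.08. This became -0.26 after quantile normalization (25 of 26 lower) and stayed at -0.08 at a mean RPKM of at least 5. The lowest there were Srrm2 (-0.66), a scaffold of the speckles in which Malat1 sits, and Rsrp1 (-0.54), and the highest were Tra2a (0.50) and Srsf3 (0.22).

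Genes of the machines that process or remove nuclear RNA were mostly near or above 0. RNase P and RNase Z form the ends of the tRNA-like RNA of Malat1, and 3 of their 13 measured genes were lower, with a median log2 ratio of 0.24. Rpph1, the RNA subunit of RNase P, was at 7403 RPKM in NTB-GMP against 5724 RPKM in 4T1-GMP (log2 ratio -0.37), Pop4 had the lowest ratio (-0.45), and Rpp25l (0.55) and Rpp30 (0.40) the highest. For the nuclear exosome and its adaptors, 7 of 25 were lower and the median was 0.11, which became -0.05 with Rn45s left out. Zfc3h1 (-0.26) and Papd7 (-0.15) were the lowest and C1d (0.46) and Exosc8 (0.33) the highest.

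Malat1 carries N6-methyladenosine (m6A), and 8 of the 14 measured genes for m6A enzymes and nuclear readers were lower, with a median of -0.06. The demethylase Fto (-0.49) and the methyltransferase Mettl3 (-0.37) were the lowest, and Mettl16, a methyltransferase that binds the Malat1 triple helix, was the highest, at 17.4 RPKM in NTB-GMP against 24.7 RPKM in 4T1-GMP (0.50), ahead of Alkbh5 (0.27). In nuclear mRNA export 4 of 22 genes were lower and the median was 0.23, with Alyref2 (-0.46) and Thoc2 (-0.23) the lowest and Ddx39 (0.71) and Mcm3ap (0.67) the highest. With Rn45s left out, the median became 0.08 for RNase P and RNase Z, -0.22 for m6A and 0.06 for export. None of these 4 lists of nuclear RNA processing, decay, m6A and export held a gene 2-fold different in either direction.

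**Figure D3:**
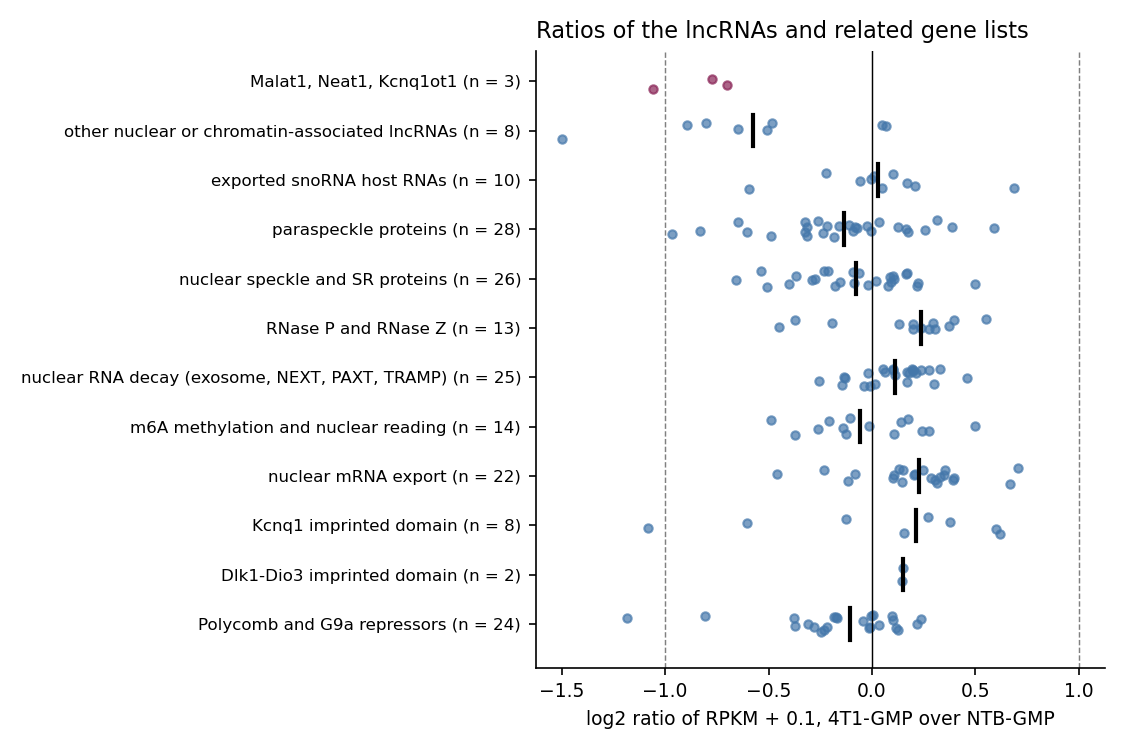
Log2 ratio of 4T1-GMP over NTB-GMP, on the log2(RPKM + 0.1) scale, for Malat1, Neat1 and Kcnq1ot1 (purple) and the measured genes of each related list (blue), 1 point per gene with vertical scatter only for visibility. Black bars are list medians and dashed lines 2-fold differences. The other nuclear lncRNAs have the lowest list median, -0.58, and the RNase P and RNase Z list the highest, 0.24.

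The start of Kcnq1ot1 lies in an imprinting control region, and the 300-base promoter windows of Kcnq1ot1 and Malat1 (250 bases before and 50 after the start, RefSeq, GRCm38.p6) are shown to set the control elements of the 2 RNAs side by side. CCAAT is the box read by NF-Y and TGACG the element read by CREB and ATF factors. Both were searched on both strands, so that ATTGG and CGTCA also count, they share no overlap with each other here, and matches are in capitals. The Kcnq1ot1 window is chr7:143296498-143296797 and that of Malat1 chr19:5802623-5802922, both on the minus strand and written 5′ to 3′.
Kcnq1ot1 promoter: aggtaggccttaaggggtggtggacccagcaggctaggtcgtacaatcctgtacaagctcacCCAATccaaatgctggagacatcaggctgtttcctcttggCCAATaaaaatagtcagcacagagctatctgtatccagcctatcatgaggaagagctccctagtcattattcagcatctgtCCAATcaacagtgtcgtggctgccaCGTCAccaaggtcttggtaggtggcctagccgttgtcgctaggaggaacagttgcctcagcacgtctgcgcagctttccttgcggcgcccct
Malat1 promoter: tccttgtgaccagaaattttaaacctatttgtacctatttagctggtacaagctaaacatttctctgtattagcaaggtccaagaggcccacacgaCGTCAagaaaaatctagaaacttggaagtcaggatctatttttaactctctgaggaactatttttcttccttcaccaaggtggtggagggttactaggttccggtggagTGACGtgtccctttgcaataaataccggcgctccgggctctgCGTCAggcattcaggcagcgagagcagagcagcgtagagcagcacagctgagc
The Kcnq1ot1 window held 3 CCAAT boxes and 1 TGACG element, and the Malat1 window 0 and 3. Among 32851 promoter windows of the same length, 37.4% held at least 1 CCAAT and 3.37% at least 3, while 20.8% held at least 1 TGACG and 1.03% at least 3. A promoter entry was found for 3 of the 4 RNAs, the exception being Neat1, and Meg3 had a pair of start sites, with 1 CCAAT and 2 TGACG at the first and 0 of either at the second. A match of letters is a description and not evidence of binding.

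The genes around Malat1 and Neat1 were lower about as often as all measured genes. Among all measured genes, 45.3% were lower in 4T1-GMP and 4.92% were at least 2-fold lower. Within 250 kb of Malat1, 20 genes were measured, Neat1 included, and 10 of them were lower in 4T1-GMP, 1 by at least 2-fold. Around Neat1, in a window that overlaps the first, 11 of 26 were lower, Malat1 included, and 1 by at least 2-fold. The gap between Malat1 and Neat1 is 22.0 kb. Frmd8, 5.5 kb from Neat1 on the other side, was at 19.1 RPKM in NTB-GMP against 18.8 RPKM in 4T1-GMP (log2 ratio -0.02). Ltbp3, which encodes a binding protein of latent TGF-beta and lies 37.2 kb from Malat1, was the gene at least 2-fold lower, at 4.09 and 1.23 RPKM (-1.66).

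**Figure D4:**
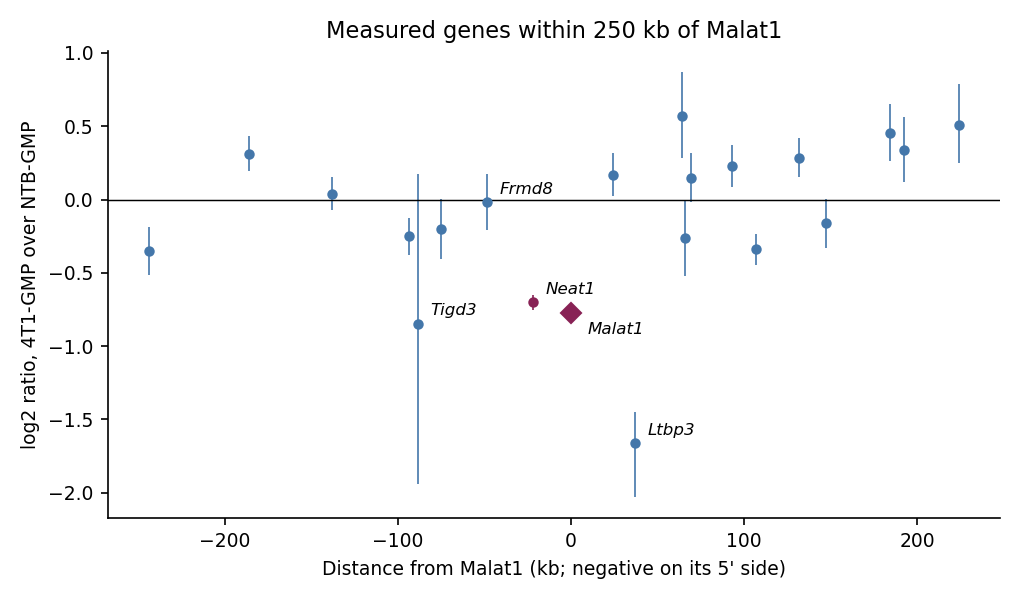
Log2 ratio of 4T1-GMP over NTB-GMP for each measured gene within 250 kb of Malat1 (diamond), against its distance in kb, negative on the 5′ side of Malat1. Vertical lines are 95% counting intervals. Malat1 and Neat1, at -0.77 and -0.70, lie below Frmd8, the nearest measured gene on the 5′ side of Neat1.

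Genes of the Kcnq1 domain, which Kcnq1ot1 silences on the paternal copy in embryo or placenta, were mixed. Of 16 genes in the list, 8 were measured, 3 were lower in 4T1-GMP, and the median log2 ratio was 0.21, which became -0.01 with Rn45s left out. Tssc4, the nearest measured gene at 142.0 kb, was at 16.0 RPKM in NTB-GMP against 24.6 RPKM in 4T1-GMP (log2 ratio 0.62), and Cars, a tRNA synthetase gene, had a ratio of 0.60. Osbpl5, a lipid transfer protein gene, was at least 2-fold lower (3.82 and 1.75 RPKM, -1.08), followed by Tspan32 (-0.61). Cd81, 145.2 kb away, was at 61.1 and 55.9 RPKM (-0.13). Cdkn1c, a cell cycle inhibitor and the best known target of the domain, was too low to measure, at 0.152 RPKM (at least 3 reads) and 0.257 RPKM (at least 15 reads), and Phlda2, Trpm5 and Th were listed at 0. Also under the filter were Slc22a18 (1.21 and 0.512 RPKM, -1.10), Ascl2 (0.427 and 0.124 RPKM, -1.23) and Tnfrsf23 (0.556 and 0.804 RPKM, 0.46).

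The chromatin repressors through which Kcnq1ot1 acts were mixed. Of 24 measured genes in the Polycomb and G9a list, which also holds Hnrnpu and Dnmt1, 16 (66.7%) were lower in 4T1-GMP, against 45.3% of all measured genes. Of the 16, 1 was at least 2-fold lower, and the median log2 ratio of the list was -0.10. The median was -0.02 at a mean RPKM of at least 5 and -0.27 with Rn45s left out. The summed level of the list was 987 RPKM in NTB-GMP against 994 RPKM in 4T1-GMP. A large part of these sums came from Hnrnpu (317 and 313 RPKM) and Dnmt1 (106 and 115 RPKM). The Polycomb readers Cbx8 (4.58 and 1.96 RPKM, -1.18) and Cbx2 (-0.81) had the lowest ratios, and Rbbp7 (0.23) and Suz12 (0.22) the highest. Ezh2, the H3K27 methyltransferase, was at 47.1 and 36.4 RPKM (-0.37), and Ehmt2, which encodes G9a, at 42.9 and 42.6 RPKM (-0.01).

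In the Dlk1-Dio3 domain the noncoding RNAs next to Meg3 were also low. Rian was at 0.0274 RPKM in NTB-GMP (at least 1 read) and 0.0745 RPKM in 4T1-GMP (at least 8 reads), Mirg, Dio3 and Dio3os were listed at 0 in both, and Rtl1, the gene opposite Meg3, had 0 reads in NTB-GMP and at least 4 in 4T1-GMP. Of 9 genes in the list, the 2 measured were Wdr25 and Ppp2r5c, each with a log2 ratio of 0.15, which turned to a median of -0.01 with Rn45s left out.

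The genes with the most similar values were found as the 3 nearest in the plane of log2(RPKM + 0.1) in the 2 libraries, which is likeness over 2 values only. For Neat1 they were Tle3 (distance 0.01, log2 ratio -0.69), Mxd4 (0.03, -0.71) and Rreb1 (0.05, -0.66). Kcnq1ot1 lay nearest to Atf7 (0.11, -0.91), Atp13a2 (0.11, -1.08) and Ccdc88a (0.13, -1.07). Few genes are as abundant as Malat1, and its nearest were Rpl36a (0.37, -0.25), Pabpc1 (0.42, -0.70) and Rps28 (0.44, -0.17), which encode ribosomal proteins and the poly(A)-binding protein.

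Markers of cell type also differed between the libraries, and their part in the lncRNA values was not tested. Each sum below is over all symbols of a list found in the data, measured or not. The 13 GMP markers were all measured, with a sum of 10798 RPKM in NTB-GMP against 16571 RPKM in 4T1-GMP, and 9 were higher in 4T1-GMP, 4 of them by at least 2-fold, while 4 were lower, 1 of them by at least 2-fold. Within the list Mpo was at 5163 and 5625 RPKM, Kit at 78.5 and 49.1 RPKM and Cd34 at 154 and 59.4 RPKM. All 14 neutrophil granule markers were higher in 4T1-GMP, 12 of them by at least 2-fold, with sums of 532 and 4103 RPKM, while 11 of 12 measured monocyte and dendritic markers were lower (332 and 135 RPKM) and 6 of 7 measured stem and early progenitor markers were lower (142 and 74.4 RPKM). The 5 measured erythroid and megakaryocyte markers were each at least 2-fold lower (33.6 and 9.49 RPKM), with the 6 globin symbols listed at 0. Lymphoid markers summed to 206 and 351 RPKM with 2 of 13 measured, stroma and endothelium markers to 35.5 and 13.6 RPKM with 2 of 13 measured, and epithelial markers to 18.3 and 10.1 RPKM with 2 of 11 measured, where Epcam, Krt5, Krt14 and Krt19 were at 0 in both libraries. The lncRNAs were thus lower in a library that also had more granule gene RNA and less monocyte, stem and megakaryocyte marker RNA.

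**Figure D5:**
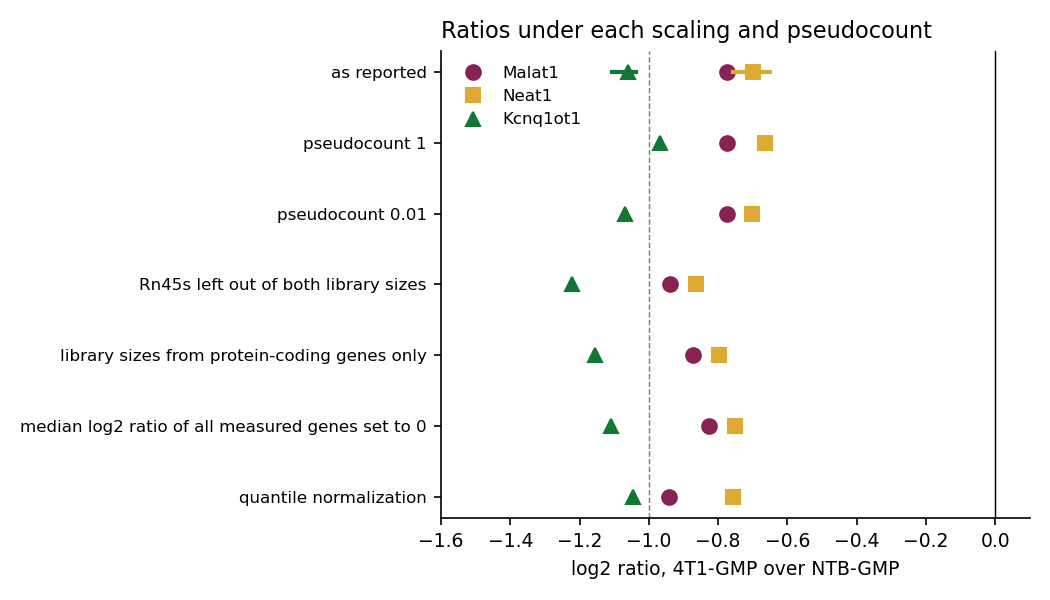
Log2 ratio of 4T1-GMP over NTB-GMP for Malat1 (circles), Neat1 (squares) and Kcnq1ot1 (triangles) as reported and under each pseudocount and scaling. Horizontal lines on the top row are 95% counting intervals, the dashed line marks a 2-fold lower value and the solid line no difference. Each of the 3 RNAs stays below 0, between -1.22 and -0.66.

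The direction of the 3 measured lncRNAs did not turn under any scaling or pseudocount tried, as the plot of ratios by scaling shows. Malat1 ranged from -0.94 to -0.77, Neat1 from -0.86 to -0.66 and Kcnq1ot1 from -1.22 to -0.97 on the log2 scale.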

How the data were processed

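Bulk RNA-seq was available for 1 library of NTB-GMP and 1 of 4T1-GMP. The authors deposited RPKM per gene symbol, and per the submitters' processing notes, which give no roles or order, CASAVA 1.8.2, cutadapt 1.2.1, TopHat2 2.0.13, Picard 1.97, HTSeq 0.6.1, edgeR 3.12.1 and mm10 were used. Strand, overlap and multi-mapping settings and the gene model are not given in the sources used here. Selection of RNA before sequencing is not reported here. The library sizes behind the RPKM were not whole numbers, as after a scaling factor, which was not recovered.

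Reads, library sizes and gene lengths were recovered from the steps between RPKM values with a procedure tested on simulated data. Recovered reads came to at least 9521699 in NTB-GMP and 26413398 in 4T1-GMP. Reads and lengths of genes other than the 4 lncRNAs are lower bounds. The intervals on those reads are thus at least as wide as independent reads would need. Log2 ratios used a pseudocount of 0.1 and a minimum mean RPKM of 1. Without replicates no test was run. RefSeq (GRCm38.p6) matched 10348 of 10378 measured symbols and gave gene classes, positions and promoters, and GENCODE M21 gave transcripts.

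The lncRNAs and lists were chosen with earlier results of these data known. Named genes were the 4 lncRNAs, Rn45s, the 2 lowest and 2 highest ratios in each list, measured noncoding list genes, annotated neighbors and the 3 nearest genes by level, and some genes named by this rule are not reported here. Core paraspeckle proteins, Ezh2, Ehmt2, Ltbp3, Cd81, Cdkn1c, Epcam, Krt5, Krt14, Krt19, Mpo, Kit and Cd34 and list genes at 0 or a few reads were added after their values were seen. So were Hnrnpu, Dnmt1, Pvt1, Nespas, Slc22a18, Ascl2, Tnfrsf23, Mir6987, Mir6988, Snhg10, Snhg17, Snhg20 and the list genes named under older symbols. Alternatives were other pseudocounts, filters and scalings. Computations used Python 3.11.15, numpy 2.4.6, pandas 2.3.3 and scipy 1.17.1.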

Additional observations from a re-analysis of the deposited data

How the results depend on the processing

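No paired analysis was possible because NTB-GMP and 4T1-GMP were single libraries, which also leaves no replicate to drop. Meg3 was under the floor in both libraries and gave no ratio under any alternative. Without Rn45s in either library size, log2 ratios were -0.94 for Malat1, -0.86 for Neat1 and -1.22 for Kcnq1ot1. With sizes from protein-coding genes they were -0.87, -0.80 and -1.16. These shifts follow from the smaller sizes by construction, and they take the sizes as recovered, with any scaling factor left in. With the median of all genes set to 0 the ratio was -0.83 for Malat1 and -1.11 for Kcnq1ot1. That setting also lowers every ratio by construction. After quantile normalization it was -0.94 for Malat1 and -0.76 for Neat1. With a pseudocount of 1 Kcnq1ot1 was at -0.97, just short of 2-fold. The direction stayed the same for Malat1, Neat1 and Kcnq1ot1 under each of the 6 alternatives, and the values not given here were within the counting interval.

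The count of genes at least 2-fold lower, 511, was 299 with a pseudocount of 1, 1246 without a filter on low values and 181 at a mean RPKM of at least 5. The count at least 2-fold higher, 337, was 734 without the filter and 170 at the stricter one. The other scalings and pseudocounts stayed within 1.5 times, at 430 to 754 lower and 236 to 386 higher. Depth limits Meg3, Rian and Cdkn1c, whose highest level was the 0.257 RPKM of Cdkn1c in 4T1-GMP.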
